A study of Mus musculus with 9 samples.

Results

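The BCL-2 family genes that decide whether a T cell lives or dies were followed here across Th1, Th17 and naive CD4+ T cells of mice. The set holds 10 genes, named by function and not by their values, out of 19072 genes tested: the survival genes Bcl2, Bcl2l1 and Mcl1, the effectors Bax and Bak1, and the BH3-only genes Bcl2l11, Bid, Bad, Bbc3 and Pmaip1. They were found on the array through the RefSeq accession of each probe, and 13 probes matched them. All 10 genes passed the filter on dim probes, and every spot of theirs that had a value was well above background and unsaturated.

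All cells were taken directly from BALB/c spleens and lymph nodes, enriched for CD4 and exposed for 3 h to a pair of drugs that bypasses the T cell receptor, 10 ng/ml of the phorbol ester PMA and 500 ng/ml of the calcium ionophore ionomycin. Th1 cells were sorted as CD3+ CD4+ CD45RB-low cells secreting interferon gamma but not IL-17A, Th17 cells as CD3+ CD4+ CD45RB-low cells secreting IL-17A but not interferon gamma, and naive cells as CD3+ CD4+ CD45RB-high cells. Each population was measured on 3 arrays by Cy3 labelling and 1-colour Agilent hybridisation. The naive cells had received PMA and ionomycin too, so every value below is that of stimulated cells, and no unstimulated population was measured. Nothing in the labels says whether arrays of a population came from separate mice. The p-values set differences between populations against the scatter of arrays within populations, and that scatter may be technical.

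Proteins of the BCL-2 family meet at the outer membrane of the mitochondrion. BAX and BAK, the effectors, open that membrane and release cytochrome c, which starts the caspase cascade; BCL-2, BCL-XL and MCL-1 hold them in check, and BH3-only proteins tip the balance by binding the guardians or the effectors. In T cells the family sets how long resting cells survive and removes activated cells at the end of a response, a role in which BIM is the best known member.

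Levels are given on a log2 scale on which 0 is the 75th percentile of the array, so a negative level means a signal below that percentile. A level of one probe says nothing against a level of another. Groups are compared by differences in this log2 level with their standard error (SE), and a gene was called at an adjusted p under 0.05 from limma's moderated test, with Benjamini-Hochberg adjustment over all genes. The 95% intervals are not adjusted. Both comparisons with naive cells use the same 3 naive arrays. On single arrays, 53.4% to 58.3% of probes were well above background. The arrays lay on 3 slides. Slide 1 held the 3 naive arrays and Th1 replicate 1, slide 2 held Th1 replicates 2 and 3 with Th17 replicates 1 and 2, and slide 3 held Th17 replicate 3, so naive and Th17 cells shared no slide.

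The sorted cells carried their labelled lineage: all 8 T cell markers listed (Cd3e, Cd3d, Cd3g, Cd4, Cd2, Cd5, Cd28 and Lck) were above background on all arrays. Their summed linear signal ran from 469 to 581 on Th1 arrays, from 464 to 503 on Th17 arrays and from 385 to 438 on naive arrays, in units of the array's 75th percentile. Of 2 CD8 markers, Cd8a was above background on no array and Cd8b1 on all of them, and their sum was 0.0639 to 0.0746 on Th1 arrays and 0.0545 to 0.0758 on Th17 arrays, against 0.573 to 0.685 on naive arrays. Of 6 B cell markers, 5 were above background on no array of any population. The 4 NK markers summed to 1.17 to 6.85 on Th1 arrays, 0.229 to 1.18 on Th17 arrays and 0.795 to 1.64 on naive arrays. The highest NK sum came with a Gzma level of 2.73 on Th1 replicate 1. Eomes averaged -1.67 in Th1, -6.17 in Th17 and -0.48 in naive cells. Ncr1 was above background on no array and Klra8 on 1 naive array. The 6 myeloid and dendritic markers summed to 25.8 to 31.8, 20.1 to 30.8 and 17.0 to 17.2 in the same order of populations. Itgam was the brightest of them and averaged 4.72 in Th1, 4.45 in Th17 and 3.65 in naive cells. Csf1r went the other way, at 1.42, 1.37 and 2.14 in that order. Cd14 was highest in Th17 cells (-1.05), and Adgre1 was called in no comparison. Lyz2 and Itgax did not pass the filter on dim probes. The 2 red cell markers with a probe, of 3 listed, summed to 0.0401 to 1.29, 0.884 to 2.78 and 0.0405 to 0.104. The part of these other cells in the results below was not tested, and in sorted bulk samples fewer cells of a type and less RNA per cell cannot be told apart.

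In Th1 cells 5 of the 10 genes were lower than in naive cells (Bcl2l11, Bax, Bid, Bad and Mcl1) and 1 was higher (Pmaip1), while 4 were not called. Over all genes 30.4% were called lower and 23.5% higher in that comparison. In Th17 cells the same 5 genes were lower than in naive cells, and Pmaip1 and Bbc3 were higher, with 3 genes not called; the background was 29.7% lower and 24.4% higher. Between Th17 and Th1 cells 2 genes were higher in Th17 cells (Bbc3 and Pmaip1), 1 was lower (Bid) and 7 were not called, against 8.28% and 7.53% of all genes. The members called lower against naive cells include a survival gene, an effector and 3 BH3-only genes. With plain normexp background correction only 2, 3 and 0 of these calls were made. These were Bcl2l11 and Pmaip1 in both comparisons with naive cells, and Bid in Th17 against naive cells. That correction shifted bright probes of Th1 replicate 2 by a median log2 of -2.145. On that array 6 spots lay far below their local background, and their part was not tested alone.

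**Figure D1:**
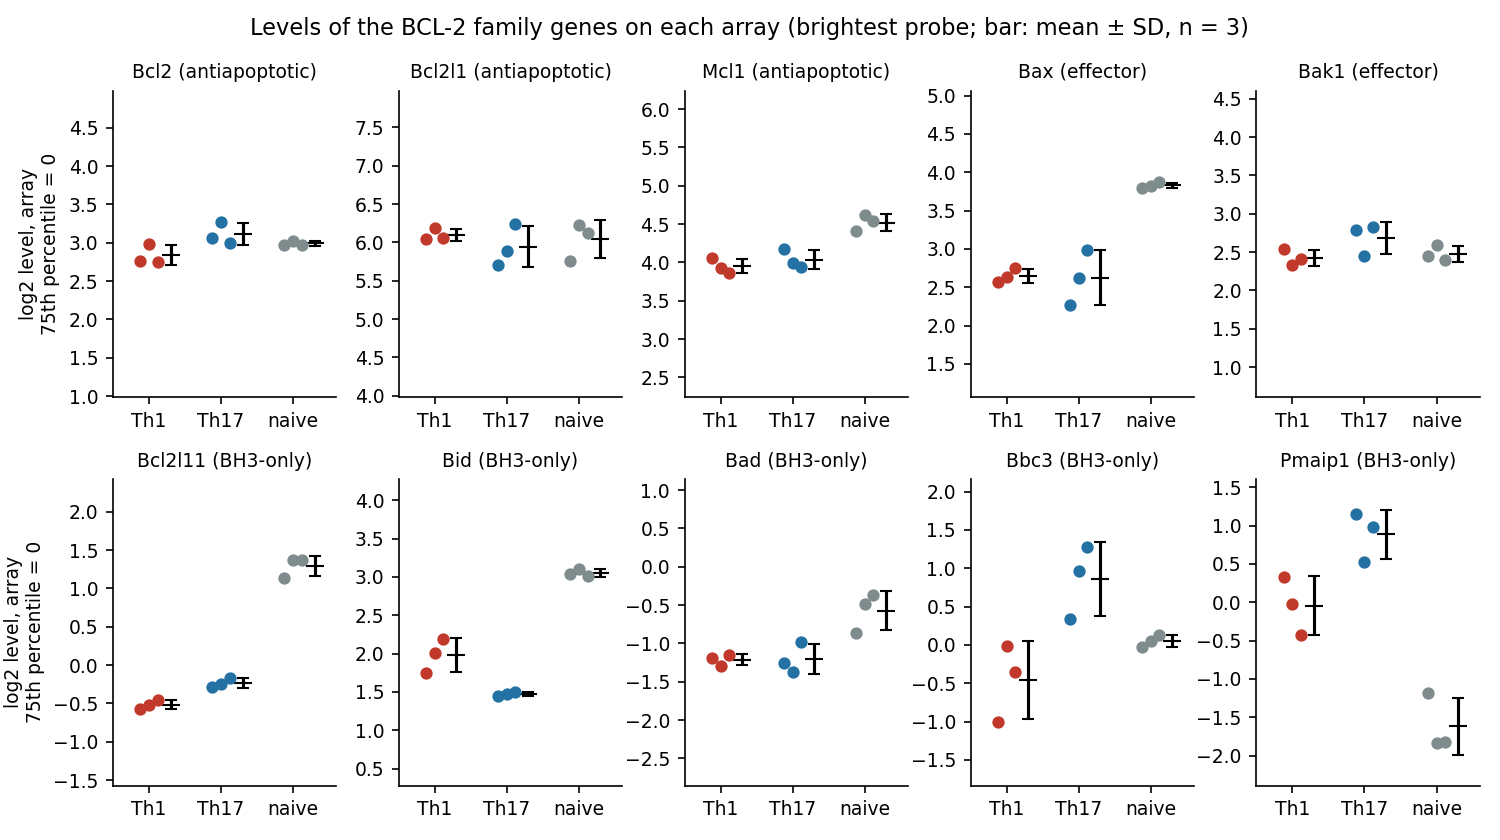
Log2 level of each of the 10 genes on each array, for the brighter probe where a gene had 2 probes; each point is 1 array, the bar is the mean ± SD of 3 arrays, and each panel spans the same number of log2 units. Bcl2l11, Bax, Bid, Mcl1 and Bad sit lower in Th1 and Th17 cells than in naive cells, and Pmaip1 sits higher.

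Among the survival genes, Mcl1 was lower in both effector populations. MCL-1 is a short-lived guardian that T cells need throughout life. The brighter of its 2 probes gave levels of 4.05, 3.93 and 3.87 on the Th1 arrays, 4.17, 3.99 and 3.94 on the Th17 arrays, and 4.41, 4.62 and 4.53 on the naive arrays. Every naive array lay above every Th1 and Th17 array, and the Th1 and Th17 arrays overlapped. Mcl1 fell by 0.57 ± 0.11 (SE) in Th1 relative to naive cells (limma, adjusted p = 0.00241) and fell by 0.49 ± 0.11 in Th17 relative to naive cells (limma, adjusted p = 0.00519). The Th17 minus Th1 difference of 0.083 was not called (95% interval -0.16 to 0.33, limma, adjusted p = 0.644) and its sign turned to -0.00613 with quantile normalization.

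The dimmer Mcl1 probe read 3.70, 3.36 and 3.26 on Th1 arrays, 3.41, 3.07 and 3.26 on Th17 arrays, and 3.85, 3.92 and 3.92 on naive arrays. Its groups separated from naive cells as those of the brighter probe did. In a fit over all 23305 probes it fell by 0.46 in Th1 cells (limma, adjusted p = 0.0216) and fell by 0.65 in Th17 cells (limma, adjusted p = 0.00429) against naive cells. In that fit 54.2% of probes were called in Th1 against naive cells, 54.4% in Th17 against naive cells and 15.9% in Th17 against Th1 cells. On slide 1, where Th1 replicate 1 alone stood against the naive arrays, the brighter probe differed by -0.47. Its call was lost in Th17 cells with slide as a fixed block (-0.28, limma, adjusted p = 0.303).

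Bcl2 codes for the founding survival protein of the family, which resting T cells maintain under interleukin-7. Its levels were 2.77, 2.98 and 2.75 on Th1 arrays, 3.07, 3.27 and 3.00 on Th17 arrays, and 2.97, 3.03 and 2.97 on naive arrays. All 3 Th17 arrays lay above all 3 Th1 arrays, and the naive arrays overlapped both. None of the 3 comparisons was called: Th1 minus naive was -0.16 (95% interval -0.41 to 0.095, limma, adjusted p = 0.262), and Th17 minus naive was 0.12 (-0.13 to 0.37, limma, adjusted p = 0.379). Th17 minus Th1 was 0.28 ± 0.11 (95% interval 0.026 to 0.53, limma, adjusted p = 0.129). The probe is assigned to 1 of 2 curated RefSeq transcripts of Bcl2.

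Bcl2l1 codes for BCL-XL, a guardian that T cells take up after activation. Its brighter probe read 6.05, 6.19 and 6.06 on Th1 arrays, 5.71, 5.89 and 6.23 on Th17 arrays, and 5.76, 6.23 and 6.13 on naive arrays. The 3 populations overlapped, and the naive and Th17 arrays spread more widely than the Th1 arrays. Th1 minus naive was 0.061 (95% interval -0.32 to 0.44, limma, adjusted p = 0.784), and Th17 minus naive was -0.10 (-0.48 to 0.29, limma, adjusted p = 0.644), a sign that turned to 0.044 with quantile normalization. Th17 minus Th1 was -0.16 (limma, adjusted p = 0.566).

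The dimmer Bcl2l1 probe read 1.39, 1.64 and 1.54 on Th1 arrays, 1.30 and 1.62 on Th17 replicates 1 and 3, and 0.77, 1.21 and 1.30 on naive arrays; the spot of Th17 replicate 2 carried an outlier flag and was left out. All Th1 arrays lay above all naive arrays on this probe, unlike on the brighter one. The difference was 0.43 in Th1 cells and 0.37 in Th17 cells against naive cells, and neither was called in the fit over probes, which used 8 arrays for this probe (limma, adjusted p = 0.0658 and 0.141).

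**Figure D2:**
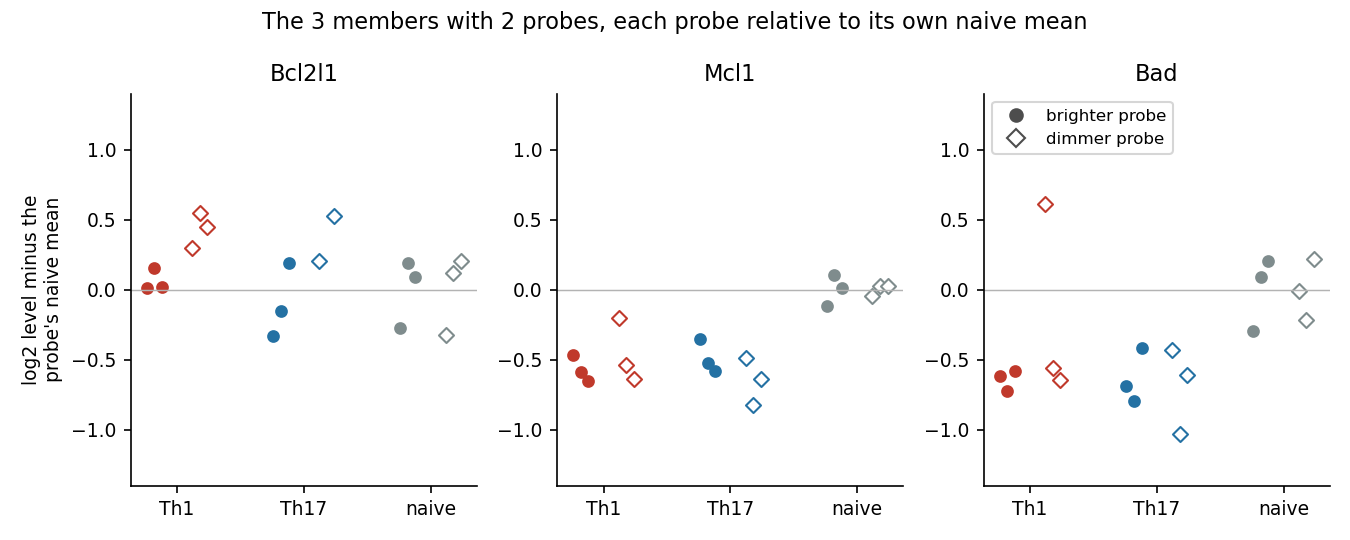
Log2 level of each array minus the naive mean of the same probe, for the 3 genes with 2 probes; filled circles are the brighter probe and open diamonds the dimmer one, 3 arrays a population except 2 for the dimmer Bcl2l1 probe in Th17 cells. Both Mcl1 probes lie below their naive mean on all Th1 and Th17 arrays, whereas the dimmer Bad probe has 1 Th1 array well above it.

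Of the 2 effectors, Bax was lower in both effector T cell populations and Bak1 was called in no comparison. BAX waits in the cytosol and moves to the mitochondrion when a BH3-only protein engages it. Bax read 2.57, 2.63 and 2.75 on Th1 arrays, 2.27, 2.62 and 2.98 on Th17 arrays, and 3.80, 3.82 and 3.87 on naive arrays. All naive arrays lay above all other arrays, and the Th17 arrays, with an SD of 0.36, enclosed the Th1 arrays. Bax was 2.26-fold lower in Th1 than in naive cells (log2 difference -1.18 ± 0.17, limma, adjusted p = 0.000553) and 2.31-fold lower in Th17 than in naive cells (-1.21 ± 0.17, limma, adjusted p = 0.000468). Th17 minus Th1 was -0.026 (95% interval -0.41 to 0.36, limma, adjusted p = 0.936).

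BAK, the product of Bak1, sits in the mitochondrial membrane already and opens it on the same signals as BAX. Bak1 read 2.54, 2.33 and 2.41 on Th1 arrays, 2.78, 2.45 and 2.83 on Th17 arrays, and 2.44, 2.60 and 2.39 on naive arrays. The 3 populations overlapped. Th1 minus naive was -0.052 (95% interval -0.35 to 0.24, limma, adjusted p = 0.757), which turned to 0.088 with quantile normalization and 0.10 with a percentile over probes detected on all arrays. Th17 minus naive was 0.21 (-0.085 to 0.50, limma, adjusted p = 0.200), and Th17 minus Th1 was 0.26 (-0.033 to 0.56, limma, adjusted p = 0.211).

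Bcl2l11, Bid and Bax had the largest falls of the 10 genes in both comparisons with naive cells, so their promoter windows are shown here, from 250 bases before to 50 bases after each RefSeq transcript start on build GRCm38.p6, written 5′ to 3′ on the gene's strand. Bcl2l11 has 2 windows on the plus strand, chr2:128125788-128126087 and chr2:128127325-128127624. Those of Bid (chr6:120916775-120917074) and Bax (chr7:45466849-45467148) are on the minus strand. Capitals mark the GC box GGGCGG on either strand, the FOXO motif GTAAACA and the E-box CACGTG, none of which overlap each other here.
Bcl2l11, window 1: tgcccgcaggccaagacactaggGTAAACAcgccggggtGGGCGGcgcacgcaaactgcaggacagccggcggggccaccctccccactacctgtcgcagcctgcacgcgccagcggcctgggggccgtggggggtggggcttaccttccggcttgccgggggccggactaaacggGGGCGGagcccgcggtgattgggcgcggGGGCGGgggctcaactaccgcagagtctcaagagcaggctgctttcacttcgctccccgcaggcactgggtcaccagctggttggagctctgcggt
Bcl2l11, window 2: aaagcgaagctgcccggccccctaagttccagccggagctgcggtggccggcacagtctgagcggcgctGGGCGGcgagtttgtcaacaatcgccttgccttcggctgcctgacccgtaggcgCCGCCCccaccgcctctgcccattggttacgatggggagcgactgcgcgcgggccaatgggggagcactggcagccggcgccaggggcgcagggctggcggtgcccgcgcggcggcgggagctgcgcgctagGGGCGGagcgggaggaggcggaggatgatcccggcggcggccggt
Bid: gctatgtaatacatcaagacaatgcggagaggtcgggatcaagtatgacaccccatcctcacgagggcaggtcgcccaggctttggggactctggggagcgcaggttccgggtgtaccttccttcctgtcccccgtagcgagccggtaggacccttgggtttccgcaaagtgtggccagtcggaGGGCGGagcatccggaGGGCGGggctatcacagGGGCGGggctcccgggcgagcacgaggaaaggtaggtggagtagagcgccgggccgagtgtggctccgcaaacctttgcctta
Bax: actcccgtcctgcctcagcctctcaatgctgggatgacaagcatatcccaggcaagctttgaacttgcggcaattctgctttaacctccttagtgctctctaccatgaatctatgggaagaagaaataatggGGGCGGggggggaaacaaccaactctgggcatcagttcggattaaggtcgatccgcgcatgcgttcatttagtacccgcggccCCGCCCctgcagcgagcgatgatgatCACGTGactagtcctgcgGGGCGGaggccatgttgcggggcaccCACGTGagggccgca

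Each of these 4 windows held 3 GC boxes. The first Bcl2l11 window also held 1 FOXO motif, whose first base is at position -227 relative to the transcript start, and the Bax window held 2 E-boxes. Of the 10 genes 9 had a promoter entry, with 15 windows in all. Of the 15 windows 10 held a GC box, against 35.7% of all 32851 promoter windows of the same length. GC content ran from 49.3% to 78.0% in member windows, beside a median of 52.7% over all windows, and its part was not tested. GC boxes were not particular to genes that fell: Bcl2 had 7 and the Bbc3 windows 5, 4 and 7, while Bak1 and Bcl2l1 had 0. Windows 2 and 3 of Bbc3 overlap in part. The FOXO motif was in 2 member windows, of Bcl2l11 and Bbc3, against 3.65% of all windows, and the E-box in 2, of Bax and Bbc3, against 7.15%. The NFAT core GGAAA was in 11 member windows, against 61.3% of all. No member window held the AP-1 motif TGANTCA (7.81% of all windows), the CRE TGACGTCA (1.79%), the EGR motif GCGTGGGCG (0.612%) or the paired p53 half-sites (0.0183%), all searched on both strands. These are matches of letters in a window and were not measured as binding.

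The BH3-only genes moved in both directions. Bcl2l11, which codes for BIM, a sensor that binds all guardians and can engage BAX itself, fell most of the 10 genes in Th1 cells. Its levels were -0.57, -0.52 and -0.46 on Th1 arrays, -0.29, -0.24 and -0.17 on Th17 arrays, and 1.14, 1.37 and 1.38 on naive arrays. The 3 populations did not overlap: Th1 arrays were lowest, Th17 arrays came next and naive arrays were highest. Bcl2l11 was 3.51-fold lower in Th1 than in naive cells (-1.81 ± 0.10, limma, adjusted p = 3.56e-06) and 2.88-fold lower in Th17 than in naive cells (-1.53 ± 0.10, limma, adjusted p = 8.48e-06). Of all genes tested, 3.38% fell further in Th1 cells and 5.46% further in Th17 cells. Th17 minus Th1 was 0.29 ± 0.10 and was not called (limma, adjusted p = 0.091).

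Bid codes for a BH3-only protein that caspase-8 cleaves, which links death receptors to the mitochondrion. Bid read 1.74, 2.0 and 2.19 on Th1 arrays, 1.45, 1.47 and 1.50 on Th17 arrays, and 3.04, 3.1 and 3.01 on naive arrays. The populations did not overlap, and here the Th17 arrays were lowest and closest together. Bid was 2.10-fold lower in Th1 than in naive cells (-1.07 ± 0.12, limma, adjusted p = 0.000156) and 2.98-fold lower in Th17 than in naive cells (-1.57 ± 0.12, limma, adjusted p = 1.85e-05).

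Bid also fell by 0.50 ± 0.12 in Th17 relative to Th1 cells (limma, adjusted p = 0.0248). The size was -0.63 within slide 2 (limma, adjusted p = 0.0642). The call was lost without Th1 replicate 2 (-0.49), Th1 replicate 3 (-0.40), Th17 replicate 1 (-0.49) or Th17 replicate 2 (-0.50), with adjusted p from 0.0643 to 0.0826. It was also lost with no filter on dim probes (adjusted p = 0.0708, limma) and with Th17 and Th1 arrays fitted alone (adjusted p = 0.0693, limma).

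Bad codes for a BH3-only protein that survival kinases inactivate by phosphorylation. Its brighter probe read -1.19, -1.29 and -1.15 on Th1 arrays, -1.26, -1.37 and -0.99 on Th17 arrays, and -0.86, -0.48 and -0.37 on naive arrays. All naive arrays lay above all Th1 and Th17 arrays, which overlapped each other. Bad fell by 0.64 ± 0.15 in Th1 relative to naive cells (limma, adjusted p = 0.00796) and fell by 0.63 ± 0.15 in Th17 relative to naive cells (limma, adjusted p = 0.0083). Th17 minus Th1 was 0.0076 (95% interval -0.35 to 0.36, limma, adjusted p = 0.981), a sign that turned to -0.041 with a percentile over probes detected on all arrays.

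The dimmer Bad probe read -3.09, -4.25 and -4.34 on Th1 arrays, -4.13, -4.73 and -4.30 on Th17 arrays, and -3.70, -3.91 and -3.47 on naive arrays. Th1 replicate 1 was the highest of all 9 arrays on it, and the Th1 and naive arrays overlapped. This probe was called neither in Th1 (-0.20, limma, adjusted p = 0.638) nor in Th17 cells (-0.69, limma, adjusted p = 0.107) against naive cells. With the mean of both probes the Th1 minus naive call was lost (-0.42, limma, adjusted p = 0.111). With slide as a fixed block the brighter probe gave -0.62 in Th1 (limma, adjusted p = 0.0556) and -0.71 in Th17 cells (limma, adjusted p = 0.107).

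Pmaip1, which codes for NOXA, a BH3-only protein that binds MCL-1, was the 1 member higher in both effector populations than in naive cells. Its levels were 0.33, -0.02 and -0.43 on Th1 arrays, 1.15, 0.53 and 0.98 on Th17 arrays, and -1.19, -1.84 and -1.83 on naive arrays. The populations did not overlap, with Th17 arrays highest and naive arrays lowest. Pmaip1 was 2.98-fold higher in Th1 than in naive cells (1.58 ± 0.26, limma, adjusted p = 0.00122) and 5.67-fold higher in Th17 than in naive cells (2.50 ± 0.26, limma, adjusted p = 9.53e-05). Of all genes tested, 3.37% rose further in Th17 cells.

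Between the effector populations Pmaip1 was 1.90-fold higher in Th17 than in Th1 cells (0.93 ± 0.26, limma, adjusted p = 0.0458). Within slide 2 the difference was 1.07 (limma, adjusted p = 0.107). The call was lost without naive replicate 2 or 3 (0.93 each), Th1 replicate 2 (0.94), Th1 replicate 3 (0.73), Th17 replicate 1 (0.80) or Th17 replicate 3 (0.88), with adjusted p from 0.0605 to 0.126. It was also lost with no filter on dim probes (adjusted p = 0.0986, limma) and with Th17 and Th1 arrays fitted alone (adjusted p = 0.0617, limma). All 3 Th17 arrays lay above all 3 Th1 arrays.

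Bbc3, which codes for PUMA, a BH3-only protein that binds every guardian and is induced by p53, was higher in Th17 than in Th1 and naive cells. Its levels were -1.01, -0.01 and -0.35 on Th1 arrays, 0.34, 0.97 and 1.27 on Th17 arrays, and -0.03, 0.05 and 0.13 on naive arrays. Every Th17 array lay above every other array, and Th1 replicate 2 lay among the naive arrays. Bbc3 was 2.49-fold higher in Th17 than in Th1 cells (1.32 ± 0.29, limma, adjusted p = 0.0182). It was 1.76-fold higher in Th17 than in naive cells (0.81 ± 0.29, limma, adjusted p = 0.0434), while Th1 minus naive was -0.50 and not called (95% interval -1.17 to 0.16, limma, adjusted p = 0.178).

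The Bbc3 differences varied with how slide was handled. Slide, population and the single Th1 array of slide 1 cannot be told apart here. On slide 1, which held the lowest Th1 array alone against the naive arrays, Th1 minus naive was -1.06, and without that array it was -0.23 (limma, adjusted p = 0.499). Within slide 2 Th17 minus Th1 was 0.83 (limma, adjusted p = 0.158). With slide as a fixed block, which ties naive to Th17 cells only through the Th1 arrays, Th17 minus naive turned to -0.22 (limma, adjusted p = 0.661), and with a random slide block it was 0.61 (limma, adjusted p = 0.174).

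Leaving out single arrays and other settings also bore on Bbc3. Its Th17 minus naive call was lost without naive replicate 1 (0.78), naive replicate 2 (0.81), naive replicate 3 (0.85), Th1 replicate 3 (0.81), Th17 replicate 2 (0.76) or Th17 replicate 3 (0.61), with adjusted p from 0.0603 to 0.127. It was also lost with quantile normalization (0.81, limma, adjusted p = 0.052), with no filter on dim probes (0.81, limma, adjusted p = 0.0824) and with plain normexp (0.74, limma, adjusted p = 0.298). Its Th17 minus Th1 call was lost without Th17 replicate 2 (1.26, limma, adjusted p = 0.0553) or Th17 replicate 3 (1.11, limma, adjusted p = 0.0522), and with Th17 and Th1 arrays fitted alone (1.32, limma, adjusted p = 0.0541).

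**Figure D3:**
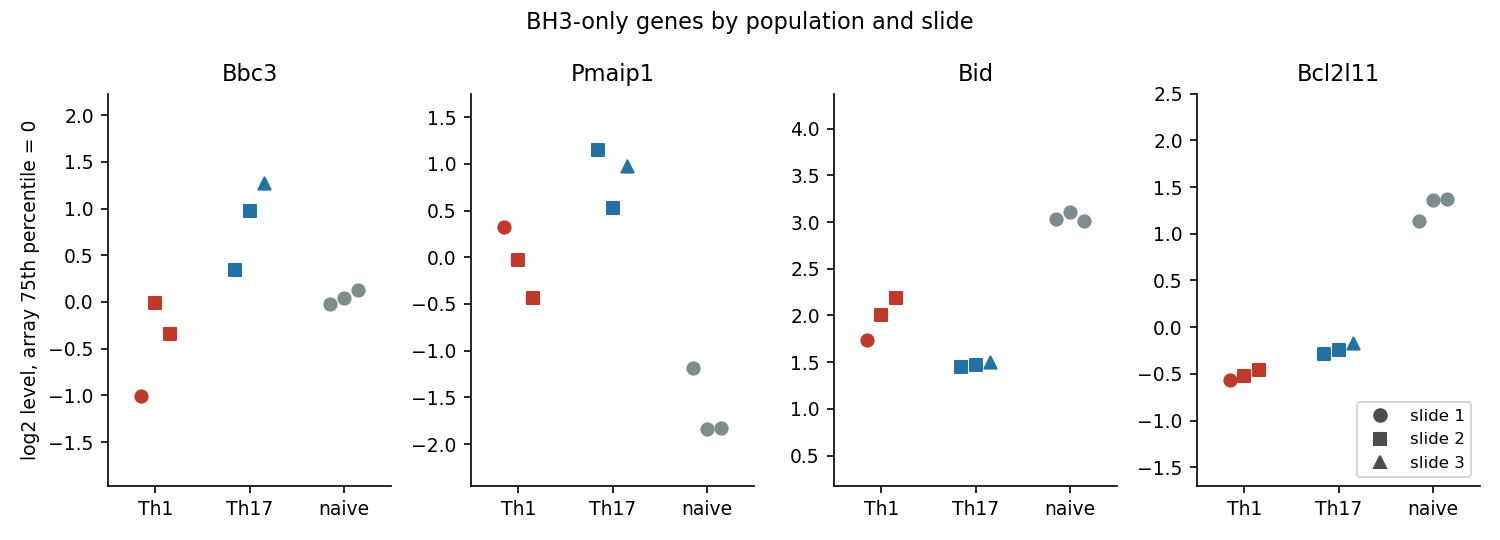
Log2 level of 4 BH3-only genes on each array, with the marker shape giving the slide (circle slide 1, square slide 2, triangle slide 3) and 3 arrays a population. For Bcl2l11 and Bid all 3 naive arrays lie above all Th1 and Th17 arrays, on the shared slide too, whereas for Bbc3 the Th1 array on slide 1 lies 1.06 below the naive mean.

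Bcl2l11, Bid, Bax and Pmaip1 kept their calls against naive cells with slide as a random block. With slide as a fixed block, Th1 minus naive rests on slide 1 alone and equals the difference there. On slide 1, where Th1 replicate 1 alone stood against the 3 naive arrays, Bcl2l11 differed by -1.87, Bid by -1.31, Bax by -1.26, Bad by -0.62 and Pmaip1 by 1.95. That arm holds 1 array and has no spread of its own, so these are values without a test. The fixed block ties Th17 to naive cells only through the Th1 arrays, of which slide 1 holds 1. Under it, Th17 minus naive was -1.64 for Bcl2l11, -1.94 for Bid, -1.50 for Bax and 3.01 for Pmaip1.

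**Figure D4:**
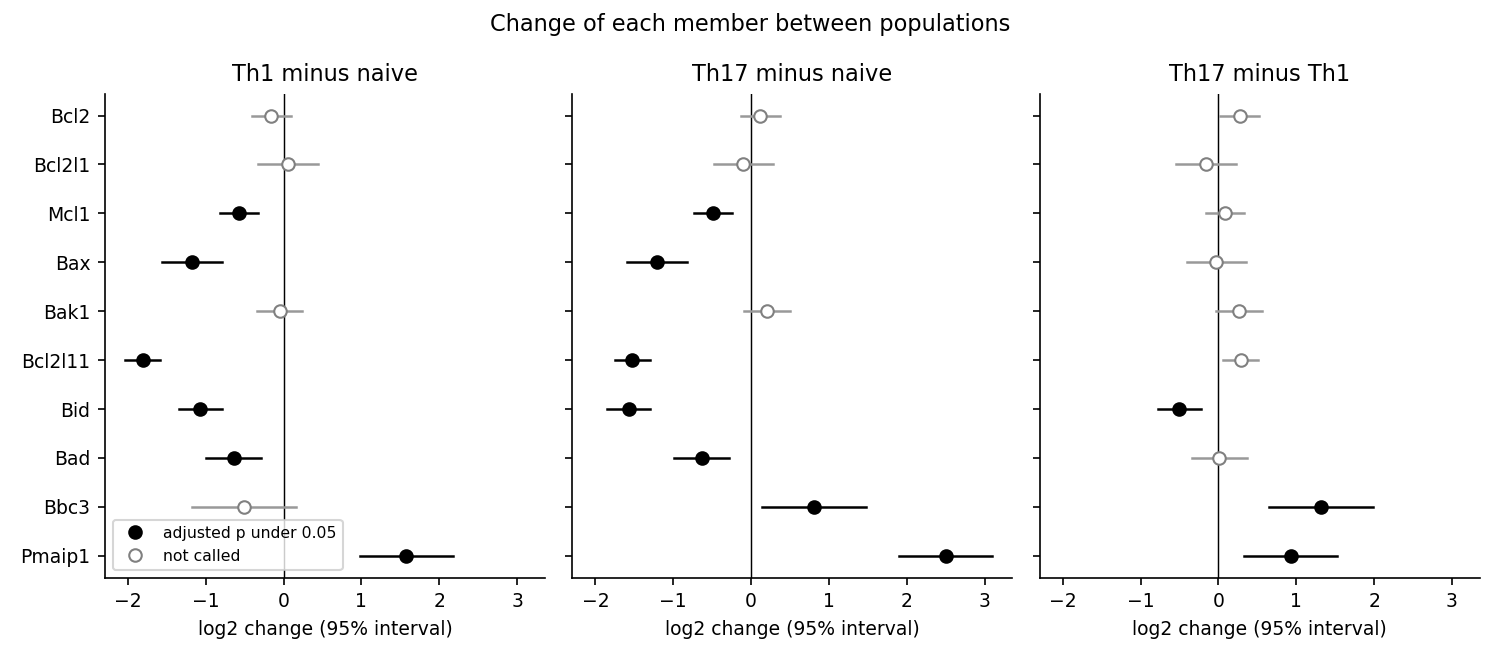
Log2 difference of each of the 10 genes with its 95% interval for Th1 minus naive, Th17 minus naive and Th17 minus Th1 (3 arrays a population); filled points passed an adjusted p under 0.05. The same 5 genes lie below 0 in both comparisons with naive cells. Of the uncalled differences, some signs turned under other scalings. These were Bak1 in Th1 minus naive, Bcl2l1 in Th17 minus naive, and Mcl1 and Bad in Th17 minus Th1.

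Counted over the set, the arrays of Th1 and naive cells did not overlap for 6 of 10 genes (65.4% of all genes), those of Th17 and naive cells for 7 of 10 (63.3%), and those of Th17 and Th1 cells for 5 of 10 (35.4%). The median log2 difference of the 10 genes was -0.54 in Th1 and -0.29 in Th17 cells against naive cells, beside -0.093 and -0.087 over all genes. Between Th17 and Th1 cells it was 0.17, beside 0.012 over all genes.

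The balance of all calls depended on the scaling. Of the genes called in Th1 against naive cells 43.6% were higher, and 55.0% with the percentile taken over probes detected on all arrays. The median over all genes was -0.093 with the main scaling and 0.055 with the other. For Th17 against naive cells the share was 45.1% and 52.7%, with medians of -0.087 and 0.012. The number of members called, 6, 7 and 3 in the 3 comparisons, was the same with both scalings.

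Further relatives of the family were followed from 2 lists. Against naive cells, 23.5% of all genes were higher and 30.4% lower in Th1 cells, and 24.4% higher and 29.7% lower in Th17 cells. Medians over all genes were -0.093 and -0.087, for comparison with the medians of all lists below. No list was tested as a set. Of 6 other survival relatives 4 had a matched probe and 3 were tested. Bcl2a1d, one of several near-identical A1 copies that the probe may not tell apart, was higher in both effector populations: 7.32, 7.25 and 6.94 on Th1 arrays, 7.87, 7.72 and 7.52 on Th17 arrays, and 6.09, 6.30 and 6.34 on naive arrays. It rose by 0.93 in Th1 (limma, adjusted p = 0.000802) and rose by 1.46 in Th17 cells (limma, adjusted p = 6.56e-05) against naive cells, and was 0.53 higher in Th17 than in Th1 cells (limma, adjusted p = 0.0373). Bcl2l2, which codes for the guardian BCL-W, was above background on no naive array. Against the lowest signal measured above background, it was at least 2.39-fold higher in Th1 and at least 3.86-fold higher in Th17 than in naive cells. These bounds were not tested. Bcl2l2 passed the filter on dim probes only through its Th1 and Th17 arrays, so no p-value is given for it against naive cells. The fitted differences, which use the naive signals below background, were 3.29 and 3.98. Bcl2l12 fell in Th1 (-0.88) and Th17 cells (-0.78) relative to naive cells (limma, adjusted p = 0.000613 and 0.00114). The list's median difference was 0.93 in Th1 and 1.46 in Th17 cells. Bcl2l10 was above background on no array, and Bcl2a1a and Bcl2a1b had no matched probe.

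Of 8 other death relatives 4 were tested, and none was called higher in Th1 than in naive cells. Bik, a BH3-only gene of the endoplasmic reticulum, read -3.17, -3.24 and -1.98 on Th1 arrays, -0.87, -0.87 and -0.96 on Th17 arrays, and -2.92, -2.95 and -2.88 on naive arrays. Its Th17 arrays stood apart from all others, while Th1 replicate 3 lay above the naive arrays and the other Th1 arrays below them. Bik was 2.02 higher in Th17 than in naive cells (limma, adjusted p = 0.000623) and 1.90 higher in Th17 than in Th1 cells (limma, adjusted p = 0.0039), and Th1 minus naive was 0.12 (limma, adjusted p = 0.757).

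Bnip3, whose product marks mitochondria for autophagy under low oxygen, read -1.79, -1.62 and -1.76 on Th1 arrays, -1.94, -1.56 and -1.37 on Th17 arrays, and 0.67, 1.08 and 1.01 on naive arrays. It fell in Th1 (-2.65) and Th17 cells (-2.55) relative to naive cells (limma, adjusted p = 7.94e-06 and 9.43e-06). Its relative Bnip3l fell by 0.42 in Th1 cells (limma, adjusted p = 0.0243), with -0.023 in Th17 cells (limma, adjusted p = 0.891), and Bcl2l13 fell by 0.76 in Th1 cells (limma, adjusted p = 0.00211), with -0.30 in Th17 cells (limma, adjusted p = 0.106). For both, Th17 minus Th1 was not called (0.40 and 0.46, limma, adjusted p = 0.0759 and 0.0582). Median differences of the 4 genes were -0.59 in Th1 and -0.16 in Th17 against naive cells. Bok and Hrk were above background on no array, Bmf on 1 Th17 array and Bcl2l14 on 1 naive array.

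Of the apoptosome and the caspases 12 genes were tested, not all of which act downstream of the mitochondrion. In Th1 cells 3 were higher and 5 lower than in naive cells, and in Th17 cells 3 were higher and 6 lower, with medians of -0.19 and -0.54. Shares over all genes were 23.5% higher and 30.4% lower in Th1, and 24.4% higher and 29.7% lower in Th17 cells. Endog, the mitochondrial endonuclease G, fell in Th1 (-2.38) and Th17 cells (-2.98) (limma, adjusted p = 1.8e-06 and 8.14e-07). Htra2, a mitochondrial protease, fell in both as well (-0.94 and -1.43 in that order) (limma, adjusted p = 0.000348 and 3.29e-05). Aifm1, the flavoprotein AIF, rose by 0.88 in Th1 and by 1.13 in Th17 cells (limma, adjusted p = 0.000442 and 0.000102). Of 5 inhibitors of caspases and death receptors 1 was higher and 1 lower in each comparison with naive cells, with medians of -0.013 in Th1 and 0.084 in Th17 cells. Cflar, which codes for FLIP, the inhibitor of caspase-8, fell in Th1 (-0.71) and Th17 cells (-0.48) (limma, adjusted p = 0.000287 and 0.00221). Birc5, a gene of dividing cells that codes for survivin, was 1.29 higher in Th17 than in naive cells (limma, adjusted p = 0.00324), with -0.013 for Th1 minus naive. Birc2 rose by 0.54 in Th1 relative to naive cells (limma, adjusted p = 0.00399), with 0.08 for Th17 minus naive.

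Upstream of Bid lies the death receptor list, of which 2 of 9 genes were higher and 5 lower in Th1, and 2 higher and 4 lower in Th17, than in naive cells, with medians of -0.83 and -0.39. Of all genes, 23.5% were higher and 30.4% lower in Th1, and 24.4% higher and 29.7% lower in Th17 cells. Tnfsf10, the death ligand TRAIL, rose by 3.71 in Th1 and by 2.32 in Th17 cells (limma, adjusted p = 1.74e-05 and 0.0002). Fas, the receptor of Fas ligand, fell in Th1 (-0.97) and Th17 cells (-1.79) (limma, adjusted p = 0.000551 and 1.93e-05). Fasl itself rose by 0.74 in Th1 relative to naive cells (limma, adjusted p = 0.00395) and fell by 0.67 in Th17 relative to naive cells (limma, adjusted p = 0.00631). The Th17 minus Th1 difference of Fasl was -1.40 (limma, adjusted p = 0.000618).

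Bbc3, Pmaip1 and Bax are classic p53 targets, and 14 further genes of that pathway were tested. In Th1 cells 3 were higher and 6 lower than in naive cells, and in Th17 cells 3 were higher and 2 lower, with medians of -0.28 and -0.041. The shares over all genes were 23.5% higher and 30.4% lower in Th1, and 24.4% higher and 29.7% lower in Th17 cells. Perp, a membrane protein of the p53 and p63 programmes, rose by 7.58 in Th1 and by 6.56 in Th17 cells (limma, adjusted p = 4.04e-07 and 9.96e-07). Cdkn1a, the cell cycle inhibitor p21, fell in Th1 (-2.45) and Th17 cells (-1.66) (limma, adjusted p = 3.54e-05 and 0.000262), and Sesn1, a stress sensor, fell in Th1 (-2.27) and Th17 cells (-2.1) (limma, adjusted p = 1.86e-05 and 2.58e-05).

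Bcl2l11 is controlled by FOXO factors and survival cytokines, and 14 of 15 such genes were tested. Against naive cells 3 were higher and 7 lower in Th1 cells, and 4 were higher and 6 lower in Th17 cells, with medians of -0.19 and -0.10. Among all genes, 23.5% were higher and 30.4% lower in Th1, and 24.4% higher and 29.7% lower in Th17 cells. Il7r, the receptor chain for interleukin-7, rose by 1.99 in Th1 and by 2.84 in Th17 cells (limma, adjusted p = 7.38e-05 and 1.08e-05), and Il2rb, a chain of the interleukin-2 receptor, by 1.73 in Th1 and by 1.90 in Th17 cells (limma, adjusted p = 1.8e-05 and 1.08e-05). Stat5a, which carries their signal, fell in Th1 (-0.81) and Th17 cells (-1.26) (limma, adjusted p = 0.000142 and 1.29e-05).

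Of 6 genes that control the turnover of MCL-1, 2 were higher and 2 lower in Th1 cells, and 1 was higher and 2 lower in Th17 cells, than in naive cells, with medians of -0.048 and -0.011. All-gene shares were 23.5% higher and 30.4% lower in Th1, and 24.4% higher and 29.7% lower in Th17 cells. Btrc, a ubiquitin ligase subunit, fell in Th1 (-0.56) and Th17 cells (-0.69) (limma, adjusted p = 0.00554 and 0.00192). Gsk3b, a kinase that marks MCL-1 for removal, rose by 0.78 in Th1 relative to naive cells (limma, adjusted p = 0.00447), with 0.09 for Th17 minus naive. Usp9x, which removes ubiquitin from MCL-1, fell by 0.63 in Th17 relative to naive cells (limma, adjusted p = 0.00597), with -0.37 in Th1 cells (limma, adjusted p = 0.058).

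**Figure D5:**
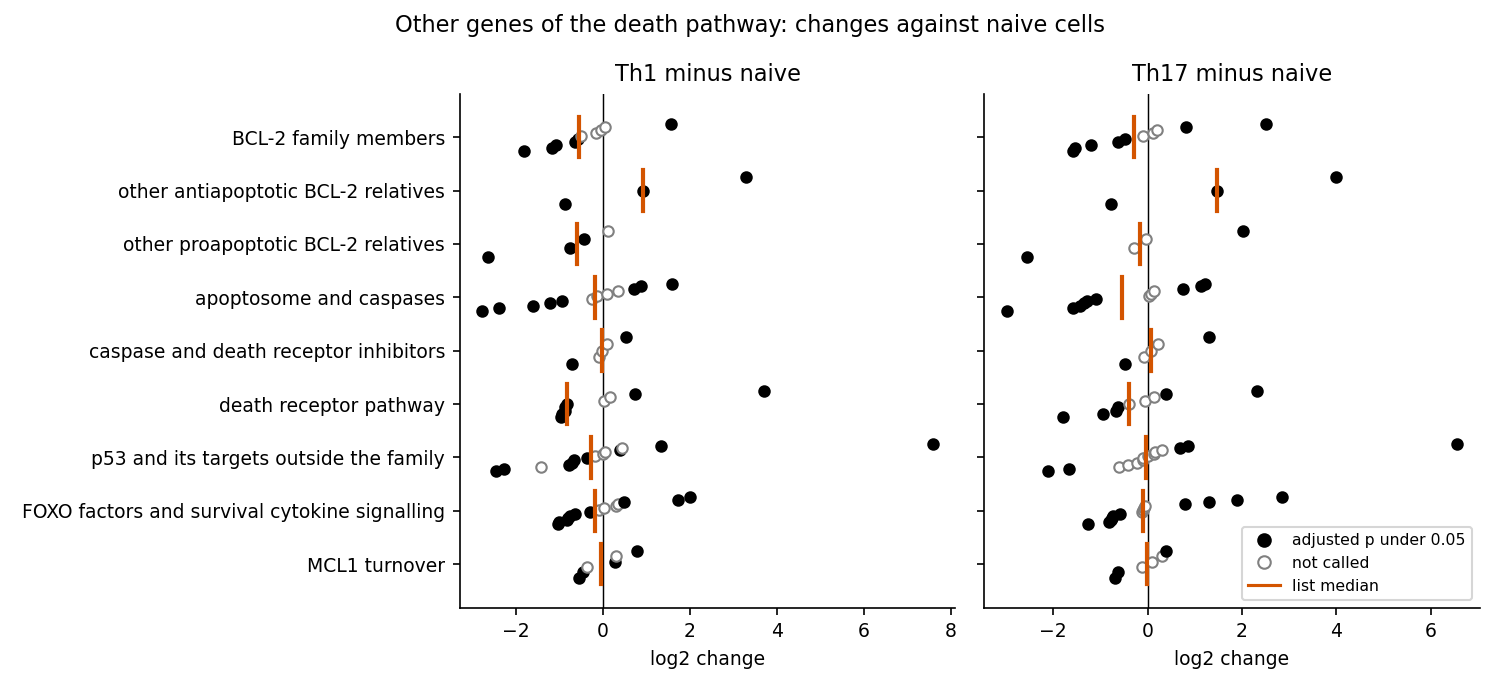
Log2 difference of every tested gene of the 10 members and of 8 further lists for Th1 minus naive and Th17 minus naive (3 arrays a population); filled points passed an adjusted p under 0.05 and the vertical tick is the list's median. Every list has genes on both sides of 0 in both panels; Bcl2l2 is drawn at its fitted value, although its naive arrays were below background.

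Bcl2l11 had the smallest p over the 3 populations among the 10 genes, and the levels of 11075 other genes were compared with its own over the 9 arrays. Pcyox1, Ogfod3 and Polr1d were closest, each with a Pearson r of 0.997, which describes arrays that share a population and, in part, a slide. Polr1d, for example, read 3.78, 3.83 and 3.80 on Th1 arrays, 3.92, 3.94 and 3.94 on Th17 arrays, and 4.93, 4.98 and 5.0 on naive arrays. Pcyox1 averaged -4.23 in Th1, -3.81 in Th17 and -0.99 in naive cells, and Ogfod3 -1.13, -0.75 and 0.82, the same order of populations as for Bcl2l11.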

How the data were processed

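Each deposited scanner file holds, per the file headers, for every spot a linear intensity called the processed signal, from which background was subtracted by Agilent Feature Extraction (version 10.7.3.1 per the file headers, 10.5 per the submitters' processing notes) with no scaling between arrays, beside raw median and background intensities. The authors' deposited table holds log2 values that match these arrays up to a shift per array and per-probe centring on a baseline that the authors' table leaves unstated; its direction was checked against the scanner values and it served as an alternative. The array design was 026655.

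Each array had 44397 spots, 1377 of them controls. After removal of controls and outlier-flagged spots, each array's 75th percentile was subtracted from its log2 processed signals, and probes well above background on at least 3 of 9 arrays were kept (23305 probes). With 1 probe a gene, the brightest, 19072 genes were tested, 13081 of them with a symbol. Symbols came from RefSeq accessions (27234 of 39429 probes matched), and promoter windows from RefSeq, GRCm38.p6. The files name an older build, so no probe positions are given.

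All 9 arrays entered a single fit with limma 3.58.1 (lmFit, eBayes, two-sided) under R 4.3.3; files were read with data.table (version 1.17.8), and the pipeline was tested on simulated data. Where 0 arrays of a group were above background, a fold is a lower bound. The number of arrays limits the precision. Within-group array correlations were 0.982 to 0.992, between-group 0.927 to 0.972, and 0 arrays were identical. The labels do not say whether replicate numbers pair the arrays. Between populations, residuals correlated at -0.00684 to 0.175 for the same number and -0.197 to 0.0648 for different numbers. These ranges overlap and do not settle whether the numbers pair the arrays.

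The members, gene lists and tests were chosen with earlier results of these data known. The text names all 10 members with every probe, the members of both lists of relatives, and the 3 genes of each further list with the smallest p over the 3 populations. Likeness was Pearson's r over 9 arrays. Alternatives covered background correction, scaling, the filter, the probe rule, slide, a replicate block, the groups fitted and each array left out.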

Additional observations from a re-analysis of the deposited data

Results flagged for a closer look

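The changes of 3 genes against naive cells differed between Th17 and Th1 cells. Since both changes use the same naive arrays, the difference between them is the Th17 minus Th1 contrast itself. For Bbc3 that difference was 1.32 on the log2 scale, for Pmaip1 it was 0.93, and for Bid it was -0.50, each past an adjusted p of 0.05 in the limma fit (adjusted p = 0.0182, 0.0458 and 0.0248). All 3 Th17 arrays lay above all 3 Th1 arrays for Bbc3 and Pmaip1, and below them for Bid. None of these calls held within slide 2, where 2 Th17 arrays stood against 2 Th1 arrays (0.83, 1.07 and -0.63, adjusted p = 0.158, 0.107 and 0.0642). With 3 arrays a population no test for single outlying arrays was made.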

How the results depend on the processing

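Over settings other than leaving out an array, called differences of the 10 genes stayed called in the same direction in 170 of 201 cases. They lost the call in 30 and reversed in 1, Bbc3 in Th17 minus naive with slide as a fixed block (-0.22). These cases are not independent. Differences in the authors' table departed from the main ones only by a small shift per array. For Th1 minus naive, the fixed slide block and the fit within slide 1 gave the same differences, which rest on 1 Th1 array. The cases also include the form of normexp chosen after seeing the data. With 1 array left out, the called differences held in 126 of 144 cases and lost the call in 18. The losses were Bbc3 in Th17 minus naive (6 cases) and, in Th17 minus Th1, Pmaip1 (6), Bid (4) and Bbc3 (2). Where the array left out belonged to neither group compared, the difference itself could not change, only its SE and adjusted p. Plain normexp gave 1248, 1230 and 175 genes called in Th1 minus naive, Th17 minus naive and Th17 minus Th1, and 2, 3 and 0 members. On Th1 replicate 2 it shifted bright probes by a median log2 of -2.145. That array had 6 spots far below their local background, whose part was not tested alone. A form chosen after seeing the data gave every spot with an outlier flag, on all arrays, its array's median background. With it the counts were 9359, 9308 and 2903 genes and 6, 7 and 3 members. With slide as a fixed block, Th17 minus naive had 5242 genes and 4 members called, and Th17 minus Th1 had 2145 genes and 1 member. Within slide 1, where the single Th1 array is assumed to vary as the naive arrays do, Th1 minus naive had 6546 genes called; within slide 2, Th17 minus Th1 had 1419 genes and 0 members. Th17 minus Th1 had 2034 genes and 1 member called with no filter on dim probes. It had 2249 genes and 0 members with only those groups fitted, beside 3015 genes and 3 members in the main fit. Leaving out 1 array gave 1924 to 2784 genes and 1 to 3 members for Th17 minus Th1, the fewest genes without Th1 replicate 2. A fit with the replicate number as a block called 10166, 10287 and 3037 genes and 6, 7 and 3 members, and changed no member's call.

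Differences that were not called changed sign as follows; the cause was not tested. Normexp turned Bcl2l1 (Th1 minus naive -0.62, Th17 minus Th1 0.50), Bad (Th17 minus Th1 -0.27) and Bax (Th17 minus Th1 0.49). Quantile normalization turned Bak1 in Th1 minus naive (0.088), Bcl2l1 in Th17 minus naive (0.044) and Mcl1 in Th17 minus Th1 (-0.00613). The percentile over probes detected on all arrays turned Bak1 (0.10), Bcl2l1 (0.00124) and Bad (-0.041) in the same comparisons as above. The authors' table turned Bad (-0.00159), and the mean of probes turned Mcl1 (-0.053) and Bad (-0.24), all in Th17 minus Th1. Slide as a fixed block and within-slide values turned Bak1 in Th1 minus naive (0.060) and Bad in Th17 minus Th1 (-0.090), and a random slide block turned Bad (-0.010). With 1 array left out, Bcl2l1 ran from -0.078 to 0.16 in Th1 minus naive and from -0.24 to 0.018 in Th17 minus naive, Bak1 from -0.11 to 0.00791 in Th1 minus naive, and Bax from -0.21 to 0.15 and Bad from -0.10 to 0.089 in Th17 minus Th1. The 3 arrays a population limit which small differences can be called.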
